A study of Mus musculus with 64 samples.

Results

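To examine what late restoration of Foxp3 did to the transcriptome of active Treg "wannabe" cells, 4 plusFoxp3 libraries were compared with 4 minusFoxp3 libraries, 2 of each from day 14 and 2 of each from day 28 after 4-hydroxytamoxifen. These 8 libraries were all active-cell libraries of the reversible Foxp3 allele at both days, out of 64 libraries in the series. Day was a block in the fit, and the 20633 genes whose counts averaged 10 or more in the 8 libraries were tested. The mice carried the Foxp3-LSL allele, in which a loxP-flanked Thy1.1 reporter and a STOP cassette stand before a Foxp3-GFP reporter gene. The plusFoxp3 libraries came from mice of the genotype Foxp3-LSLCD4-CreERT2, and the minusFoxp3 libraries from Foxp3-LSLCD4-WT mice, which carry no Cre. Both arms were labelled as treated with 4-hydroxytamoxifen, and both came from pooled spleen and lymph nodes. The mice were adult heterozygous females with 1 wild-type Foxp3 allele, so that cells expressing the wild-type allele kept Foxp3 function in every host.

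In this allele, Cre removes the STOP cassette together with Thy1.1, and the cell then makes Foxp3 fused to GFP. Sorted plusFoxp3 cells were therefore GFP-positive, and minusFoxp3 cells were Thy1.1-positive and GFP-negative. The Cd4 gene drove CreERT2. The Cre genotype, the sort gate and Foxp3 itself changed together between the arms and cannot be told apart. Active cells were those with low CD62L and high CD44 surface protein. Untreated cells of both genotypes (day 0) and active Treg cells of untreated Foxp3GFP mice (GFP Treg cells) are given beside the results.

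Foxp3 is the transcription factor that defines Treg cells, which restrain immune responses. Cells with an active Foxp3 locus but no functional protein, called wannabe cells, keep parts of the Treg phenotype and can produce cytokines of effector T cells. Active Treg cells have met antigen, have left the circulation pattern of naive cells and carry suppressor molecules such as CTLA-4, IL-10 and the TGF-beta activating proteins GARP and integrin beta 8.

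The 8 libraries held 40813000 to 52661412 counted read pairs, and log expression correlated between 0.955 and 0.98 over all library pairs. Levels are given in CPM, the read pairs of a gene per 1000000 counted read pairs of its library. Where 4 values follow each other, they are replicates 1 and 2 of day 14 and then replicates 1 and 2 of day 28. Replicates of a group differed by more than counting noise in every group. Markers of CD4 T cells summed to 9670 to 10700 CPM in the plusFoxp3 libraries and to 9100 to 9900 CPM in the minusFoxp3 libraries, and Cd4 was the 1 of these markers that was called. No tested marker of CD8 T cells, of granulocytes or of erythroid cells was called. Of 10 listed markers of NK, innate lymphoid and gamma-delta T cells, only 3 were tested, and none of these was called. Trgc2, a constant region gene of the T cell receptor gamma chain, was named after its values were seen. It was called lower in plusFoxp3 cells (log2 fold change -2.24), and the part of gamma-delta T cells was not tested. Of 11 tested macrophage, monocyte and dendritic cell markers, Cd14 was called higher (0.368 to 1.23 CPM against 0.294 to 0.482 CPM) and Siglech lower. Of 6 tested markers of stroma and endothelium, Pecam1, which T cells also express, was called lower (65.4 to 79.2 CPM against 75.6 to 114 CPM).

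Some minusFoxp3 libraries carried RNA of plasmacytoid dendritic cell genes. Siglech, a surface receptor of plasmacytoid dendritic cells, stood at 2.41, 51.3, 5.05 and 68.9 CPM in the minusFoxp3 libraries. It stood at 0.196, 0.248, 0.456 and 0.31 CPM in the plusFoxp3 libraries. Replicate 2 was high at both days, and the arms did not overlap. Klk1 followed with 1.51, 17.6, 1.74 and 27.1 CPM in the minusFoxp3 libraries and no read pair in the plusFoxp3 libraries. Over 16 plasmacytoid genes, a list chosen after the values were seen, the summed level was 463, 808, 520 and 911 CPM in the minusFoxp3 libraries and 578 to 619 CPM in the plusFoxp3 libraries. Siglech, Pld4, Ly6d, Cox6a2 and Rnase6 were the 5 list members called lower. Untreated and early minusFoxp3 cells carried this RNA as well. Siglech reached 78.5 CPM at day 0 and 125 CPM at day 7, both in replicate 2. At day 3 replicate 1 was the higher library, at 22.8 CPM against 3.79 CPM in replicate 2. Resting cells held 0.213 to 0.67 CPM. In bulk libraries, more cells of a type and more RNA per cell cannot be told apart. Counts below are therefore also given without both minusFoxp3 libraries in which Siglech exceeded 10 CPM.

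**Figure D1:**
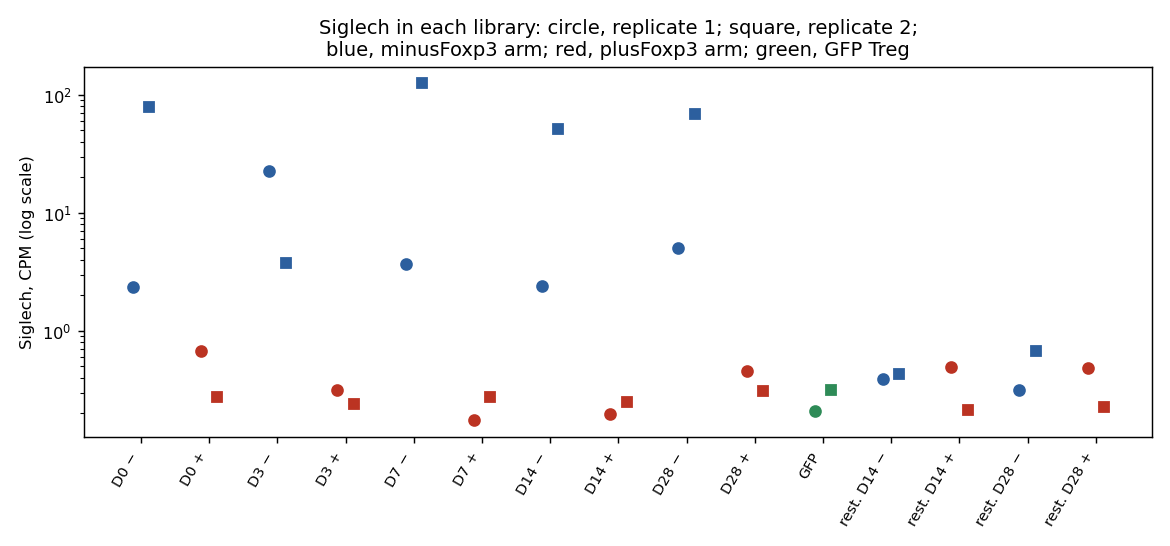
Level of Siglech in each library (vertical axis, CPM on a log scale) for the active cells of days 0 to 28, active GFP Treg cells and resting cells (rest.) of days 14 and 28. Circles are replicate 1 and squares replicate 2, and at days 14 and 28 the active minusFoxp3 squares stand at 51.3 and 68.9 CPM against 2.41 and 5.05 CPM for the circles.

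The engineered alleles were visible in the counts. Foxp3 (chromosome X, 7439883 to 7461484 in GRCm39) stood at 47.7, 54.3, 58.3 and 44.3 CPM in the minusFoxp3 libraries and at 505, 535, 594 and 592 CPM in the plusFoxp3 libraries. All 4 plusFoxp3 libraries lay far above all 4 minusFoxp3 libraries, and the log2 fold change was 3.44 (SE 0.12, adjusted p = 8.63e-07 in edgeR's quasi-likelihood test). Thy1, whose reads include those of the Thy1.1 reporter, fell from 425, 413, 425 and 386 CPM to 126, 98.2, 128 and 90.2 CPM. Both checks went with the labels. Foxp3 in active GFP Treg cells was 734 and 817 CPM, above each plusFoxp3 library. Foxp3 shares bases with Ppp1r3f on the opposite strand, which was called higher as well (log2 fold change 1.39).

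Esr1 and Cd4 are both tied to the Cre allele, and Esr1 was already called between the genotypes before treatment. Esr1, the estrogen receptor gene from which the ERT2 domain is taken, stood at 1.32, 2.03, 1.41 and 3.01 CPM in the minusFoxp3 and at 17.3, 15.2, 18.1 and 15.5 CPM in the plusFoxp3 libraries, and its log2 difference was 3.11 late and 2.99 at day 0. Cd4, the coreceptor gene at which CreERT2 is placed, stood at 940, 945, 1000 and 988 CPM against 507, 474, 528 and 451 CPM, a log2 difference of -0.98 (edgeR adjusted p = 0.000139). At day 0 the log2 difference of Cd4 was -0.68 and did not pass (edgeR adjusted p = 0.746). The day 0 comparison over 20569 genes called Esr1 and Zswim5 (edgeR adjusted p = 0.0204 and 0.00974), which is 0.00972% of the genes tested, and 1227 genes had an unadjusted p under 0.05. DESeq2 called 37 genes there.

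At days 14 and 28, 1473 genes were called at an adjusted p under 0.05, 7.14% of the genes tested. Of these, 647 (3.14%) were higher and 826 (4.00%) lower in plusFoxp3 cells, and 4758 genes had an unadjusted p under 0.05. The median absolute log2 fold change of the called genes was 0.87, and 654 of them reached 1, of which 327 were higher and 327 lower. Among the called genes, 1308 had no overlap in CPM between the arms, against 2942 (14.3%) of all genes tested, 6.74% with plusFoxp3 higher and 7.52% with it lower. The median log2 fold change of all genes was 0.03. Without both Siglech-high libraries 664 genes were called, of which 569 were among the 1473. All 647 higher genes kept their direction there, as did the 800 of 826 lower genes that still had a value. Fits that left out 1 library called 768 (without day 14 plusFoxp3 replicate 2), 851 (without day 28 minusFoxp3 replicate 2), 935 (without day 28 minusFoxp3 replicate 1), 936 (without day 14 minusFoxp3 replicate 2), 954 (without day 14 plusFoxp3 replicate 1) and otherwise 1147 to 1314 genes, and no called gene with a value changed direction in any of them. All of these fits reuse libraries from which the genes were called, so a kept direction was nearly given and is no independent support. With the day 0 difference subtracted, 190 genes were called, 179 of them among the 1473. Of 84 called genes chosen for naming, 31 kept the call and 51 lost it, among them Klrg1 (log2 difference 6.21, edgeR adjusted p = 0.165), Lrrc32, Itgb8, Il2ra, Tnfsf8, Ccl20 and Batf, and 2 changed sign.

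**Figure D2:**
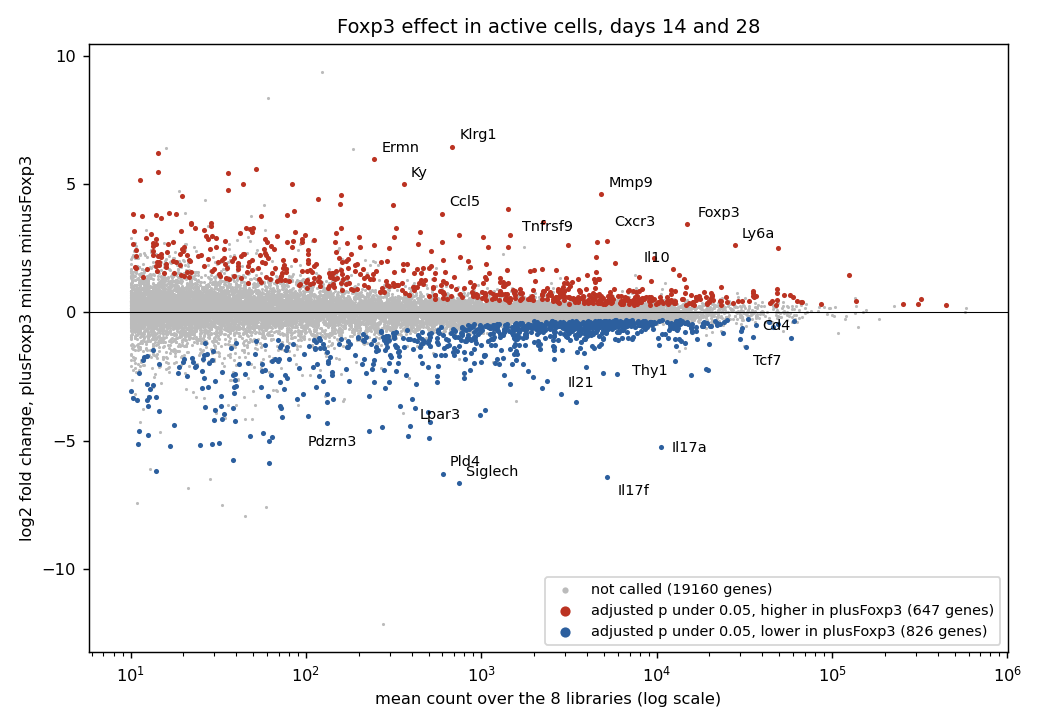
Each point is 1 of 20633 genes, with its mean count over the 8 libraries on the horizontal axis (log scale) and its log2 fold change, plusFoxp3 minus minusFoxp3, on the vertical axis. Red points are the 647 genes called higher and blue points the 826 called lower, and Il17f and Il17a lie at -6.40 and -5.25 while Klrg1 and Mmp9 lie at 6.46 and 4.62.

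Among named genes with a mean count of at least 100 and no overlap, Klrg1 had the largest log2 increase. Klrg1, an inhibitory receptor of differentiated effector T cells and effector Treg cells, stood at 0.306, 0.0226, 0.135 and 0.725 CPM in the minusFoxp3 libraries. In the plusFoxp3 libraries it stood at 8.18, 9.47, 69.2 and 19.5 CPM (log2 fold change 6.46, SE 0.61, edgeR adjusted p = 0.000206). GFP Treg cells, at 33 and 85.7 CPM, lay near the day 28 values. Mmp9, a secreted protease of the extracellular matrix, rose from 6.15, 6.6, 8.16 and 5.72 CPM to 74.8, 112, 397 and 157 CPM (log2 fold change 4.62, SE 0.42), and GFP Treg cells held 51.8 and 76.1 CPM. The plusFoxp3 libraries of day 28 thus exceeded both GFP Treg libraries for Mmp9.

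The other genes of this rank were Ermn, Ky, Fcmr, Fhip1a, Ighj1, Ccl5, Slc28a2b, Foxp3 and the unnamed models ENSMUSG00000121186 and ENSMUSG00000120754, with log2 fold changes of 3.44 to 5.96. Ky, a gene known for its role in muscle, stood at 0.421, 0.497, 0.656 and 0.192 CPM in minusFoxp3 and at 8.09, 20.2, 10.5 and 17.8 CPM in plusFoxp3 cells. Ermn was highest in day 28 plusFoxp3 replicate 1, at 32.8 CPM against 0.806 to 2.01 CPM in the other plusFoxp3 and 0.0575 to 0.249 CPM in the minusFoxp3 libraries, and its call held without that library. Leaving out day 14 minusFoxp3 replicate 1, day 28 minusFoxp3 replicate 1 or day 28 minusFoxp3 replicate 2 ended the call of Ermn, with an adjusted p of up to 0.0809, and leaving out day 28 minusFoxp3 replicate 1 ended that of Fhip1a (0.0522). Fcmr encodes the receptor for IgM.

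Ighj1 (113393401 to 113393453) and ENSMUSG00000120754 (113389913 to 113390546) both lie on chromosome 12 beside Ighm, the gene of the IgM constant region, at 113382178 to 113386350. ENSMUSG00000120754 stood at 2.83, 2.92, 2.91 and 4.78 CPM in minusFoxp3 and at 39, 51.7, 47.1 and 81.1 CPM in plusFoxp3 cells. Ighm itself, named after its values were seen, stood at 258, 299, 288 and 367 CPM in minusFoxp3 and at 1278, 1705, 1564 and 2331 CPM in plusFoxp3 cells (log2 fold change 2.50, SE 0.14, edgeR adjusted p = 1.99e-05). The arms were far apart, and GFP Treg cells were higher still at 3754 and 3902 CPM. Of the B cell genes, Ms4a1 stood at up to 1.37 CPM and Pax5 at up to 1.16 CPM in these libraries. Cd79b, a chain of the B cell receptor complex, stood at 17.9 to 33 CPM in plusFoxp3 and at 13.9 to 21.1 CPM in minusFoxp3 cells, and Cd79a and Jchain reached 3.9 and 9.66 CPM. The summed B and plasma cell list was lower in plusFoxp3 cells (46.9 to 78.3 CPM against 96.4 to 117 CPM). Blk, at 17.2 to 52.9 CPM against 72.2 to 91.1 CPM, was its 1 called member and made up most of the sum in minusFoxp3 cells. The part of B cells in the level of Ighm was not tested.

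**Figure D3:**
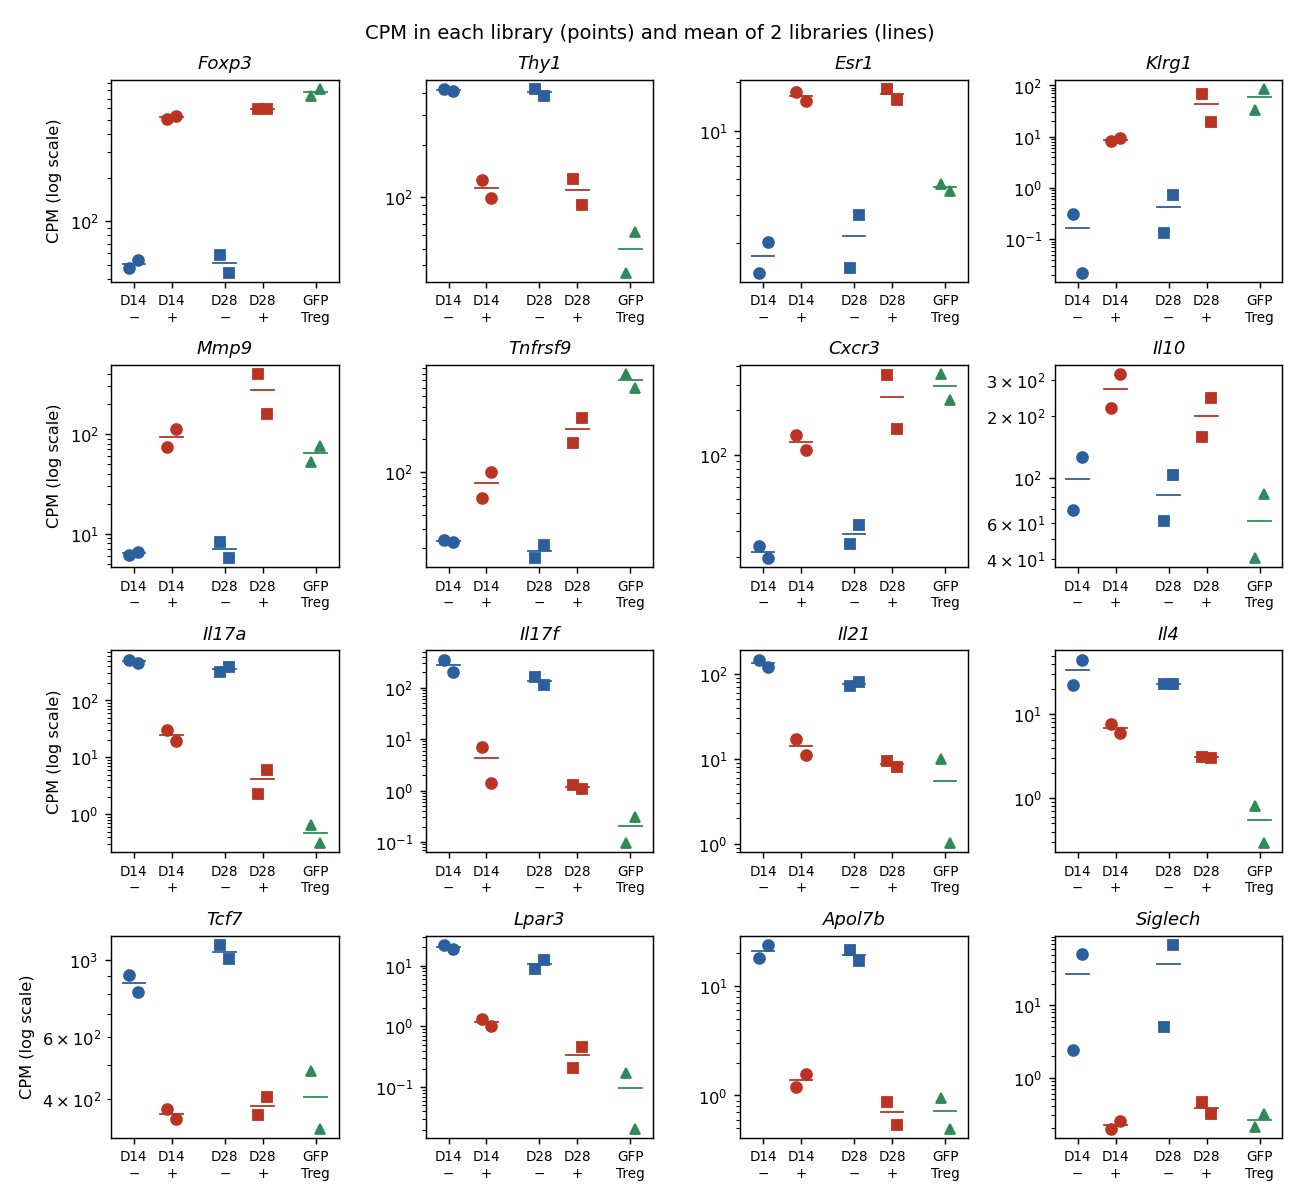
CPM (vertical axes, log scale) of 16 genes in each library of days 14 and 28 and in active GFP Treg cells. Minus and plus signs mark the minusFoxp3 and plusFoxp3 arms, points are libraries and lines are means of 2 libraries. The arms do not overlap for any of the 16 genes, while 14.3% of all genes tested have no overlap. Several of the 16 were chosen by a rule that asks for no overlap.

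On the lower side, the same rule (mean count of at least 100 and no overlap) gave the 12 genes of largest log2 decrease. They were Siglech, Il17f, Pld4, Il17a, Ly6d, Ctsh, Pdzrn3, Rnase6, Lpar3, Plaur, Apol7b and Avpr1a, with log2 fold changes of -6.67 to -4.04. Of these 12, 6 (Siglech, Pld4, Ly6d, Ctsh, Rnase6 and Plaur) stood at least 4-fold higher in both replicate 2 minusFoxp3 libraries than in replicate 1 of the same day. So did 138 of all genes tested, among which 16 were called lower and 3 higher. Some of the 16 lay outside the rule and fell as far, such as Cox6a2 (-5.87) and Adam11 (-4.85). Without both Siglech-high libraries Siglech and Pld4 were still called (log2 fold change -3.62 and -3.85), while the adjusted p of Ly6d, Ctsh, Rnase6 and Plaur was 0.0599, 0.0705, 0.0977 and 0.0851. These 6 calls also ended when single libraries of the plusFoxp3 arm were left out, with adjusted p-values of up to 0.159. Ly6d, Ctsh, Rnase6 and Plaur lost theirs without day 28 minusFoxp3 replicate 2 as well, and Ly6d and Rnase6 without day 14 minusFoxp3 replicate 2.

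The remaining 6 genes did not follow Siglech. Lpar3, a receptor for lysophosphatidic acid, fell from 21.8, 18.9, 8.83 and 12.3 CPM to 1.32, 1.01, 0.209 and 0.455 CPM. Apol7b, an apolipoprotein L family gene, fell from 18.2, 23.7, 21.5 and 16.8 CPM to 1.2, 1.57, 0.874 and 0.538 CPM. Pdzrn3, a ubiquitin ligase with PDZ domains, fell from 8.33, 9.72, 8.72 and 9.6 CPM to 1.03, 0.458, 0.038 and 0.062 CPM. For each of the 3 genes the highest plusFoxp3 library lay far below the lowest minusFoxp3 library, and the edgeR adjusted p was 2.19e-05, 2.19e-05 and 0.00035. The rule that chose these genes asked for a call and for no overlap, so both were given in advance. Apol7b shares bases with the model Gm6506 on the same strand.

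Of 35 genes of Treg effector function and identity, 17 rose and 1 fell. This was a share of 51.4% against 7.14% of all genes, with a median log2 fold change of 0.79 against 0.03. This list and those below were chosen with earlier results of these data known. They also share members, such as Itgb8, so their shares are not separate results. Tnfrsf9 (4-1BB), a costimulatory receptor of activated Treg cells, stood at 23.8, 23, 16.3 and 21.2 CPM in the minusFoxp3 and at 57.7, 100, 186 and 316 CPM in the plusFoxp3 libraries. Both GFP Treg libraries, at 796 and 600 CPM, were higher than any of these. Itgae, the integrin chain CD103 that binds E-cadherin of epithelia, rose from 76.6, 111, 53.7 and 62 CPM to 260, 390, 245 and 394 CPM. Ikzf2 (Helios) rose from 61.6, 36.2, 35.2 and 56.1 CPM to 121, 158, 173 and 299 CPM. The arms did not overlap for Tnfrsf9, Itgae or Ikzf2.

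The receptor genes Il2ra, Ctla4, Tnfrsf18 and Icos rose as well. Il2ra, the high-affinity chain of the IL-2 receptor, rose from 281, 322, 249 and 267 CPM to 424, 525, 408 and 585 CPM (log2 fold change 0.80, edgeR adjusted p = 0.00482). Ctla4 rose from 888, 942, 732 and 813 CPM to 1324, 1305, 937 and 1122 CPM (0.47), and the day 14 minusFoxp3 level of replicate 2 lay above the lowest plusFoxp3 level of day 28. Tnfrsf18 (GITR) rose by 0.99 and Icos by 0.92. The wannabe cells thus already held these transcripts at 188 to 942 CPM. Nrp1 (0.72), Ikzf4 (0.80), Gzmb (1.43), Entpd1 (0.24) and Lag3 (0.29) did not pass, with adjusted p-values of 0.0674 to 0.26. Nt5e (CD73), which makes adenosine from AMP, was the 1 member that fell, by 0.58 on the log2 scale, and it lost the call without day 14 plusFoxp3 replicate 1 or day 28 minusFoxp3 replicate 1 (adjusted p up to 0.0582).

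Among suppressor molecules, 7 of 21 rose and 2 fell (42.9%, against 7.14% of all genes), with a median of 0.46. Il10 stood at 69.7, 126, 61.5 and 103 CPM in minusFoxp3 and at 220, 321, 158 and 245 CPM in plusFoxp3 cells, and GFP Treg cells, at 40.4 and 82.7 CPM, lay below every plusFoxp3 library. Ebi3, a subunit of IL-27 and IL-35, rose from 2.76, 3.16, 1.35 and 2.45 CPM to 11.8, 13.2, 16.2 and 20.5 CPM (log2 fold change 2.66). It shares bases with the antisense model Gm16712, which rose too. Lrrc32, which encodes GARP, rose from 23.3, 23.7, 12.8 and 11.2 CPM to 53, 109, 81.6 and 196 CPM (2.63), and Itgb8 from 0.824, 2.03, 0.733 and 0.725 CPM to 2.16, 6.06, 16.1 and 23.8 CPM (3.27). GARP and integrin beta 8 together release active TGF-beta, while Tgfb1 itself differed by 0.01. Without both Siglech-high libraries Lrrc32 had an adjusted p of 0.0513, and without day 28 minusFoxp3 replicate 2 alone Itgb8 had an adjusted p of 0.0558.

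Il1r2, a decoy receptor for IL-1, was the other suppressor gene that fell, by 0.70 on the log2 scale. Its day 0 difference between the genotypes was -0.85, and the late effect minus the day 0 difference was 0.15 (edgeR adjusted p = 0.821). For the group of suppressor molecules this subtraction gave a median of 0.88, and for the Treg genes 1.01, since their day 0 medians were -0.27 and -0.25. Across the receptors of coinhibition and costimulation, 7 of 22 rose and 1 fell (36.4%, against 7.14% of all genes). Cd27 rose from 129, 115, 102 and 139 CPM to 326, 392, 328 and 518 CPM, with 745 and 697 CPM in GFP Treg cells. Tnfsf8, the ligand of CD30, fell from 439, 343, 369 and 392 CPM to 256, 159, 173 and 130 CPM. Pdcd1, Lag3 and Havcr2 had log2 differences of -0.32, 0.29 and 0.28 and did not pass.

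The cytokine genes Il17a, Il17f and Il21, which Th17 cells express, fell. Il17a stood at 522, 460, 313 and 391 CPM in the minusFoxp3 libraries and at 29.9, 19.6, 2.24 and 6.06 CPM in the plusFoxp3 libraries (log2 fold change -5.25, SE 0.48, edgeR adjusted p = 0.000683). Il17f, from the neighbouring gene on chromosome 1, fell from 351, 202, 163 and 111 CPM to 7.03, 1.39, 1.29 and 1.08 CPM (-6.40, SE 0.45). Both genes lay at 0.0949 to 0.645 CPM in GFP Treg cells, below every plusFoxp3 library. Il21, a cytokine that acts on B cells and T cells, fell from 147, 120, 72.1 and 81.1 CPM to 17.2, 11, 9.53 and 8.02 CPM (-3.19).

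Ccl20, the chemokine ligand of CCR6, changed far less than the interleukins. It fell from 646, 689, 501 and 414 CPM to 423, 328, 144 and 154 CPM (log2 fold change -1.22), and GFP Treg cells held 4.84 and 1.62 CPM. Of 19 tested Th17 genes 8 fell and 1, Batf, rose (47.4%, against 7.14% of all genes), with a median of -0.44. The late effect minus the day 0 difference was below 0 for 17 of the 19, and for Il17a it was -4.22 (edgeR adjusted p = 0.000275). For Ccl20 it was -0.35 and did not pass (edgeR adjusted p = 0.639). Ccr6 fell by 0.84 and lost the call without both Siglech-high libraries (adjusted p = 0.0759) and in 5 of 8 fits that left out 1 library (up to 0.083). Batf (0.60) had an adjusted p of 0.0547 without both Siglech-high libraries. Il22, another Th17 cytokine gene, had a log2 difference of -3.25 and did not pass.

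Il4, the main cytokine of Th2 cells, stood at 22.3, 44.9, 22.7 and 22.8 CPM in minusFoxp3 and at 7.67, 6.04, 3.11 and 3.04 CPM in plusFoxp3 cells (log2 fold change -2.56). It was the 1 Th2 or tissue repair gene of 14 tested that fell, and Il4ra, the IL-4 receptor chain, was the 1 that rose (0.64). The share called was 14.3%, against 7.14% of all genes. Gata3, which specifies Th2 cells, differed by 0.11 and did not pass. Genes of Th1 and cytotoxic cells had a median of 0.62, with 5 of 24 higher and 3 lower (33.3%, against 7.14% of all genes). Cxcr3, the chemokine receptor of Th1 cells and Th1-like Treg cells, rose from 23.9, 19.8, 24.6 and 33.4 CPM to 136, 107, 347 and 149 CPM, while GFP Treg cells held 353 and 236 CPM. Ccl5 rose from 0.594, 1.51, 1.7 and 1.77 CPM to 9.8, 4.49, 55.4 and 19.2 CPM. Tbx21, the Th1 transcription factor, was at 70.8 CPM in day 28 plusFoxp3 replicate 1 and at 8.23 to 17.4 CPM in the other plusFoxp3 libraries, and did not pass. Ifng had a log2 difference of -0.44 and did not pass either.

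Klrk1 and Klrd1, receptors of NK cells that T cells can also carry, fell, whereas Klrg1 rose. Klrk1 (NKG2D) stood at 9.42, 9.58, 34.6 and 18.3 CPM in minusFoxp3 and at 2.43, 2.79, 13.4 and 4.53 CPM in plusFoxp3 cells, so that the arms overlapped between days. Klrd1 (CD94) fell from 1.47, 4.36, 7.87 and 5.78 CPM to 0.588, 0.669, 1.96 and 0.227 CPM. Without day 14 plusFoxp3 replicate 2 or day 28 minusFoxp3 replicate 1 neither call held, and Klrk1 was also lost without day 14 plusFoxp3 replicate 1, with adjusted p-values of up to 0.0574 for Klrd1 and 0.0728 for Klrk1. Gzma, a granzyme, was called higher on few reads, at 0, 0, 0.0964 and 0.107 CPM against 0.049, 0.229, 1.39 and 5.19 CPM, and lost the call without either day 28 minusFoxp3 library (adjusted p up to 0.0781).

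Of 18 T follicular helper genes, 8 rose and 2 fell (55.6%, against 7.14% of all genes), with a median of 0.32. Cxcr5, which guides cells into B cell follicles, stood at 7.12, 6.76, 4.32 and 5.97 CPM in minusFoxp3 and at 24.5, 35.9, 54.1 and 97.4 CPM in plusFoxp3 cells (log2 fold change 3.00), and GFP Treg cells held 228 and 146 CPM. The arms stood well apart for Cxcr5, which shares bases with Bcl9l on the opposite strand. Bcl6, the transcription factor of follicular helper cells, had a log2 difference of 0.55 (adjusted p = 0.079) and did not pass. Il21, the cytokine of these cells, fell, as given above, and so did Pou2af1, a coactivator of octamer-binding factors. Pou2af1 lost the call in 5 of 8 fits that left out 1 library, with an adjusted p of up to 0.0671.

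Genes of homing and tissue contact moved in both directions, with 8 of 40 higher, 5 lower (32.5%, against 7.14% of all genes) and a median of -0.10. Besides Mmp9, Ccl5, Itgb8, Cxcr5, Cxcr3 and Itgae, Ccr3 rose from 1.3, 0.407, 1.25 and 0.725 CPM to 5.05, 5.75, 5.34 and 8.21 CPM. Itgal, the alpha chain of LFA-1, fell from 643, 821, 773 and 798 CPM to 475, 476, 520 and 508 CPM. Ccr7, the receptor for entry into lymph nodes, fell by 0.77 on the log2 scale with an edgeR adjusted p of 0.0494, and 7 of 8 fits without 1 library ended that call (adjusted p up to 0.144). The plusFoxp3 levels of Ccr7 were 257, 214, 133 and 285 CPM and the minusFoxp3 levels 473, 346, 313 and 381 CPM.

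**Figure D4:**
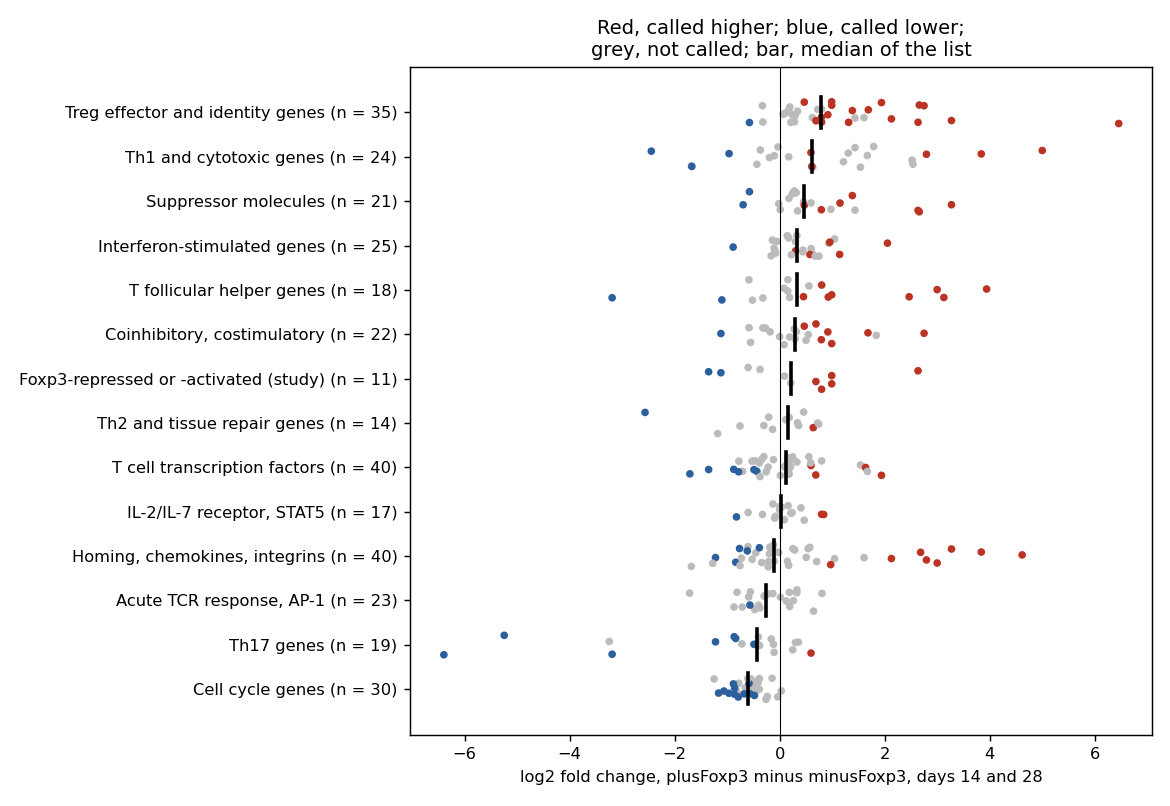
Log2 fold change (horizontal axis) of every tested member of 14 gene lists at days 14 and 28, with 1 point per gene and a bar at the median of each list. The median of the Treg list lies at 0.79 and that of the cell cycle list at -0.60, and the Th17 list has 3 genes below -3 that were called.

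Among 40 T cell transcription factors, 4 rose and 6 fell (25%, against 7.14% of all genes), with a median of 0.12. Tcf7, which encodes TCF-1, a factor of naive and memory-like T cells, stood at 902, 808, 1101 and 1007 CPM in minusFoxp3 and at 375, 350, 359 and 404 CPM in plusFoxp3 cells (log2 fold change -1.35, SE 0.09, edgeR adjusted p = 3.26e-05). GFP Treg cells held 480 and 329 CPM, in the range of plusFoxp3 cells. Lef1, the close relative of TCF-1, moved the other way, from 62.5, 50.1, 64.6 and 79.6 CPM to 78.5, 95.3, 110 and 132 CPM, with a slight overlap between day 14 plusFoxp3 and day 28 minusFoxp3 cells. Id3, an inhibitor of E proteins, rose from 20.4, 17.2, 11.9 and 26.9 CPM to 39.9, 44.1, 60.1 and 105 CPM. Without both Siglech-high libraries Lef1 and Id3 each had an adjusted p of 0.0611.

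Zeb2, a repressor found in terminal effector cells, fell from 30.5, 30.2, 36.8 and 32.3 CPM to 11.9, 10.6, 12.7 and 4.67 CPM, after a day 0 difference of -0.90. Irf4, a factor induced by antigen receptor signals, fell from 171, 189, 127 and 144 CPM to 106, 119, 66.4 and 79.3 CPM, and the arms did not overlap. The day 0 difference of Irf4 was -0.49, and the late effect minus it was -0.30 and did not pass (edgeR adjusted p = 0.56). Of the acute T cell receptor response and AP-1 genes, 1 of 23 was called, Myc, which fell from 180, 183, 197 and 175 CPM to 113, 98, 150 and 142 CPM, and the median of that list was -0.27. That share of 4.35% was below the 7.14% of all genes. Myc lost the call when either day 14 plusFoxp3 library was left out (adjusted p up to 0.054). Of 17 IL-2 and IL-7 receptor and STAT5 genes, 2 rose (Il2ra and Pim1) and 1 fell (17.6%, against 7.14% of all genes). The gene that fell was Bcl2, a survival factor, from 213, 184, 221 and 186 CPM to 113, 97.4, 114 and 132 CPM. Pim1 (0.84) lost its call in 5 of 8 fits without 1 library, with an adjusted p of up to 0.0914. Il7r had a log2 difference of -0.60 and Il2rb of 0.21, and neither passed. In resting cells of the same days the log2 effect of Il2rb was 1.34. The effect of Il2rb in active minus that in resting cells was -1.13 (SE 0.11, edgeR adjusted p = 0.002). The count of genes with such a difference rested on single libraries, as given below.

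Interferon-stimulated genes gave 5 higher and 1 lower of 25 (24%, against 7.14% of all genes), with a median of 0.33. Of the higher genes, Oas2 lost its call in 5 and Ifit2 in 6 of 8 fits that left out 1 library (adjusted p up to 0.152 and 0.0838). Isg20 stood at 25.2, 57.4, 32.8 and 43.3 CPM in minusFoxp3 and at 81.2, 88.6, 86.7 and 92.4 CPM in plusFoxp3 cells (log2 fold change 1.14). Oasl2 moved against the group, by -0.89, and had an adjusted p of 0.0708 without both Siglech-high libraries. Of the 11 genes that the study had named as repressed or activated by Foxp3, Lrrc32, Tnfrsf18, Izumo1r, Il2ra and Tnfrsf4 rose and Tcf7 and Tnfsf8 fell. The share called was 63.6%, against 7.14% of all genes, and Id2, Sox4, Il7r and Il2rb were not called. Izumo1r (0.99) had an adjusted p of 0.0714 without both Siglech-high libraries. The study named these genes from its Foxp3 degradation experiments. It also followed its top degradation-sensitive genes in restored cells, so the directions here are not new evidence.

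For genes that the results turned on, the 300 bases around the start of transcription (250 before and 50 after) were searched in RefSeq promoter sequences for the forkhead motif TGTTTAC and the AP-1 motif TGANTCA, on both strands. These sequences are from the build GRCm38.p6, while the counts are on GRCm39. The forkhead letters stood in 20 of 441 promoters of genes called higher (4.5%), in 30 of 617 of genes called lower (4.9%) and in 391 of 12270 of all tested genes with an entry (3.2%). For the AP-1 letters the shares were 6.6%, 6.5% and 6.5%. The matches below are shown because they stand near the start of genes described above, of which Il17a and Tcf7 fell and Tnfrsf9 and Pim1 rose, with the motif in capitals and each sequence on the strand of its gene, 5′ to 3′. GTAAACA is TGTTTAC read on the other strand.
Il17a, AP-1, plus strand, chr1:20730655-20730677: tgatacTGAATCAcagcaaagca
Tnfrsf9, AP-1, plus strand, chr4:150927974-150928000: cctgctcagtTGAGTCAcaggtcctgt
Tcf7, forkhead, minus strand, chr11:52282578-52282604: ctttataggaGTAAACAgacccccgcc
Pim1, forkhead, plus strand, chr17:29493005-29493031: cccaaagtttGTAAACAggaatcacgt
The match starts 244 bases before the gene start in Il17a, 15 before it in Tnfrsf9 and 70 before it in Pim1, and at base 1 of the gene in Tcf7. Further matches in named genes are not shown, among them those in Plaur, Klrk1 and Zeb2, which fell, and in Maml3, which rose. A match of letters is no evidence of binding.

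Of 30 cell cycle genes 11 fell and none was called higher (36.7%, against 7.14% of all genes), with a median log2 fold change of -0.60. Rrm2, a subunit of ribonucleotide reductase, stood at 183, 109, 73.3 and 72.2 CPM in minusFoxp3 and at 64.2, 62.4, 49.2 and 50 CPM in plusFoxp3 cells. Mcm3, a part of the replicative helicase, stood at 211, 176, 147 and 134 CPM against 76.1, 87.7, 66.5 and 86.5 CPM. Both genes were highest in day 14 minusFoxp3 cells. Mki67, the gene of the proliferation antigen Ki-67, had a log2 difference of -0.39 (adjusted p = 0.0519) and did not pass.

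At day 0 all 30 genes were lower in the untreated CreERT2 arm than in the WT arm, with a median of -0.80, and none of them was called. At day 3 all 30 were above 0 (median 1.54), at day 7 there were 16 above and 14 below 0 (median 0.03), at day 14 all 30 were below (-0.89) and at day 28 there were 24 below (-0.31). The late effect minus the day 0 difference had a median of 0.15, with 11 of 30 genes below 0. For Rrm2 it was 0.09 (edgeR adjusted p = 0.96) and for Mcm3 -0.59 (edgeR adjusted p = 0.375). The calls of Rrm2 and of Bub1b ended without either day 14 plusFoxp3 library (adjusted p up to 0.0701 and 0.0767), and Kif11 lost its call in 5 of 8 fits (up to 0.116). The day 0 libraries came from other mice, and the part of the genotype in the late difference was not tested further.

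**Figure D5:**
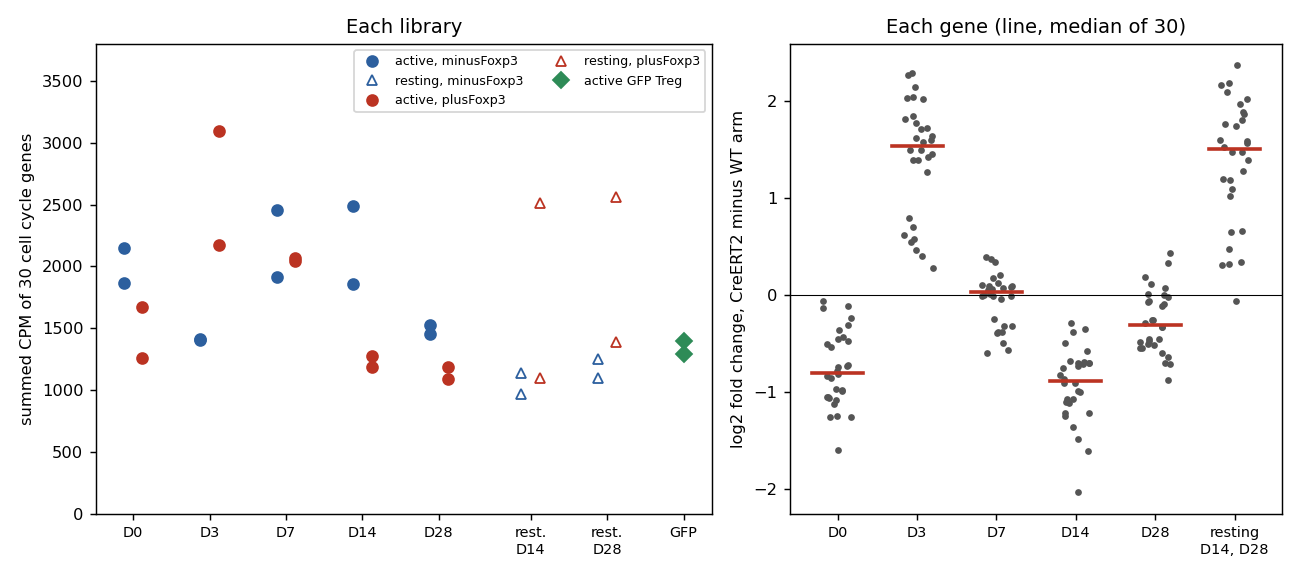
Left, summed CPM of 30 cell cycle genes in each library, with active minusFoxp3 libraries between 1450 and 2486 CPM and active plusFoxp3 libraries between 1087 and 1275 CPM at days 14 and 28. Right, log2 fold change of each of the 30 genes between the CreERT2 and the WT arm by day in active cells and for resting cells of days 14 and 28, where the lines are medians, at -0.80 for day 0, 1.54 for day 3 and 1.50 for resting cells.

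Between day 28 and day 14, no gene was called by edgeR for a change in the size of the effect (0.00% of 20633 genes), 830 had an unadjusted p under 0.05, and DESeq2 called 30. Without a count filter edgeR called 2 genes, and without day 28 plusFoxp3 replicate 2 it called 1. The median of the Treg list was 0.39 at day 14 and 1.01 at day 28, and that of all genes was 0.01 and 0.03. For Tnfrsf9 and Itgb8 both plusFoxp3 libraries of day 28 lay above both of day 14, but the change in their effect did not pass the test.

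Between the late days and days 3 and 7, the size of the effect differed for 32 genes (0.154% of 20742 tested), of which 2 were higher late (0.00964%) and 30 lower (0.145%). Both higher genes were named, Ly6a and Mllt6. Ly6a (Sca-1), a surface protein of activated lymphocytes that type I interferon induces, stood at 188, 129, 143 and 161 CPM in minusFoxp3 and at 252, 175, 424 and 364 CPM in plusFoxp3 cells at days 3 and 7. At days 14 and 28 it stood at 167, 150, 175 and 144 CPM in minusFoxp3 and at 856, 898, 1172 and 997 CPM in plusFoxp3 cells. The effect was 0.92 early and 2.62 late on the log2 scale (difference 1.70, SE 0.21, edgeR adjusted p = 0.00889), and GFP Treg cells held 444 and 630 CPM. Every late plusFoxp3 library lay above both GFP Treg libraries for Ly6a.

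Of the 30 genes with a lower late effect, 7 belonged to the list of 30 cell cycle genes, such as Rrm2 (difference -1.57), Kif11 (-1.93) and Top2a (-1.54), whose early effects were above 0. Pdzrn3 (difference -4.04), Glp1r (-2.80), Myof (-2.57) and Il21 (-1.36) were already below 0 early and went lower late. Glp1r, the receptor of the incretin GLP-1, stood at 34, 33.9, 33.6 and 56.8 CPM in early minusFoxp3 and at 12.4, 14.5, 14.8 and 10.1 CPM in early plusFoxp3 cells. In late plusFoxp3 cells it stood at 8.82, 4.37, 0.418 and 0.641 CPM against 27.7 to 53.6 CPM in minusFoxp3 cells. The count rested on single libraries: it was 4 without day 7 plusFoxp3 replicate 1, 1929 without day 7 minusFoxp3 replicate 2, the library with Siglech at 125 CPM, and between 5 and 53 otherwise. Without all Siglech-high libraries it was 67, of which 18 were among the 32.

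In resting cells of the same days, sorted as CD62L high and CD44 low, Foxp3 rose to a like level (log2 fold change 3.47), and the effect differed between active and resting cells for 87 genes (0.421% of 20664 tested), of which 37 were higher (0.179%) and 50 lower (0.242%) in active cells. Itgb8 (difference 2.56), Tnfrsf9 (1.87) and Cd27 (1.47) had a larger effect in active cells. Maml3 (1.78) had a log2 effect of 1.18 in active and -0.64 in resting cells. It stood at 0.479 to 2.18 CPM in active cells, and its late call ended in all 8 fits that left out 1 library. Tnfrsf9 was already at 89.5 to 141 CPM in resting minusFoxp3 cells and reached 153 to 221 CPM with Foxp3, a log2 effect of 0.88. Gzmb (difference -4.59), Ccr2 (-3.73) and Tigit (-3.27) had a larger log2 effect in resting cells. For Gzmb that effect started from few reads. Its resting means at days 14 and 28 were 0.184 and 0.0665 CPM in minusFoxp3 and 3.56 and 13.7 CPM in plusFoxp3 cells. Active cells held 38.9 to 193 CPM of Gzmb in minusFoxp3 and 185 to 246 CPM in plusFoxp3 libraries. Ccr2, a chemokine receptor of effector cells, stood at 1.85 to 6.4 CPM in resting minusFoxp3 and at 25.2 to 120 CPM in resting plusFoxp3 cells, while active cells held 391 to 622 CPM and 579 to 895 CPM. Cell cycle genes were above 0 in 29 of 30 cases in resting cells (median 1.50), where both replicate 1 plusFoxp3 libraries had summed levels of 2514 and 2559 CPM and the other plusFoxp3 libraries 1102 and 1389 CPM. The count of 87 fell to 3 without the Siglech-high libraries, to 1 without any of day 14 plusFoxp3 replicate 2, day 28 minusFoxp3 replicate 1 or resting day 28 minusFoxp3 replicate 1, and rose to 304 without resting day 14 plusFoxp3 replicate 2.

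The directions of the called genes were then read in libraries that had no part in calling them. Of the genes called higher, 80% (509 of 636) were above 0 at days 3 and 7, against 45.8% of all genes, and 82.9% (530 of 639) were above 0 in resting cells of days 14 and 28, against 49.7%. At day 0, before treatment, the share was 46.9%. Of the genes called lower, 63.6% (524 of 824) were below 0 early and 63.1% (515 of 816) in resting cells, against 54.2% and 50.2% of all genes, and 55.3% at day 0. Active GFP Treg cells minus untreated minusFoxp3 cells gave 89.3% (567 of 635) above 0 for the genes called higher and 87.5% (712 of 814) below 0 for the genes called lower, against 48.7% and 51.3% of all genes.

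Levels in GFP Treg cells lay beyond those of plusFoxp3 cells for many called genes. Both GFP Treg libraries exceeded every plusFoxp3 library for 245 of 647 genes called higher (37.9%, against 15% of all genes), among them Tnfrsf9, Lrrc32, Ikzf2, Cxcr5, Cd27 and Foxp3. Both lay below every plusFoxp3 library for 239 of 826 genes called lower (28.9%, against 14.5%), among them Il17a, Il17f and Ccl20. For 92 genes called higher (14.2%, against 14.5%) both GFP Treg libraries lay below every plusFoxp3 library, and Ly6a was 1 of these. For 192 genes called lower (23.2%, against 15%) both lay above every plusFoxp3 library. GFP Treg cells carried another Foxp3 allele and were untreated, and their part in these gaps was not tested.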

How the data were processed

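RNA of sorted cells was amplified with the SMART-Seq v4 kit, made into libraries and sequenced in read pairs. The authors deposited 1 table per library of raw counts, the read pairs per gene. Per the file headers these counts were made with featureCounts 2.0.3 on GENCODE vM30 (GRCm39), by gene name, with both mates aligned and without strand, so that reads of overlapping genes on opposite strands cannot be told apart. The aligner is given as STAR in the study's methods and as Bowtie2 in the submitters' processing notes. The 37 mitochondrial gene models held 0 read pairs in the 30 libraries used. The totals of the 8 late active libraries lay between 40813000 and 52661412, which limits the precision of genes with few read pairs.

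Counts were tested with edgeR 4.0.16 in R 4.3.3 (quasi-likelihood F test, TMM factors, robust estimation), on genes with a mean count of at least 10, with Benjamini-Hochberg adjustment over all genes tested and calls at an adjusted p under 0.05. The late effect was fitted on 8 libraries with day as a block. The day 28 against day 14 difference came from the same libraries, the late against early and the active against resting differences from 16 libraries each and the day 0 difference from 12. The procedure was also run on simulated counts. These held no difference between libraries like that of Siglech, so they cannot show how such a difference moves the counts of called genes. Alternatives were DESeq2 1.42.0, RLE factors, other filters, the replicate block, thinning, and each library left out. The labels do not say whether replicates came from separate mice. The study describes the replicates of each genotype and day in this experiment as independent and biological. The p-values measure the spread between these samples. An error (SE) is that of the fitted log2 fold change, with 4 libraries per arm.

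Genes were named by rule: the genes that the engineered alleles touch, the 12 called genes per direction with the largest log2 fold change among those with a mean count of at least 100 and no overlap in CPM, up to 4 called members per direction and list with uncalled members given by value, and up to 4 genes per direction of each difference. Models named Gm or Rik and receptor variable segments were left out (143 and 10 called). Some named genes are not reported here. Members and lists were chosen with earlier results of these data known. Promoter sequences are from RefSeq (GRCm38.p6).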

Additional observations from a re-analysis of the deposited data

Results flagged for a closer look

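In 9 of 178 sets of 4 libraries, 1 library of a named gene stood far from the others, and chance gives about 1 in 20 such sets. The distant libraries were Ermn at 32.8 CPM in day 28 plusFoxp3 replicate 1 (others 0.806 to 2.01), Il17f at 7.03 CPM in day 14 plusFoxp3 replicate 1 (others 1.08 to 1.39) and Sostdc1 at 1.37 CPM in the same library (others 3.68 to 4.03). Avpr1a stood at 0.535 CPM in day 14 plusFoxp3 replicate 2 (others 0.114 to 0.145), and Pim1 at 394.5 CPM in the same library (others 307.3 to 318.3). In day 14 minusFoxp3 replicate 2, Itgb8 stood at 2.03 CPM (others 0.725 to 0.824) and Il4 at 44.9 CPM (others 22.3 to 22.8). In day 28 minusFoxp3 replicate 2, ENSMUSG00000120754 stood at 4.78 CPM (others 2.83 to 2.92) and Cebpa at 0.64 CPM (others 0.0575 to 0.0771).

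The size of the effect was tested between late and early days with an interaction term, which called 32 genes. Among named genes the log2 differences were 1.70 for Ly6a and 1.18 for Mllt6. They were -4.04 for Pdzrn3, -2.80 for Glp1r, -2.72 for Nek2, -2.57 for Myof, -1.93 for Kif11, -1.57 for Rrm2 and -1.36 for Il21. Nek2, a mitotic kinase, was not itself called in the late comparison.

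The same kind of test called 87 genes between active and resting cells. The log2 differences were 2.56 for Itgb8, 1.87 for Tnfrsf9, 1.78 for Maml3, 1.58 for Traj8, 1.47 for Cd27 and 1.08 for Lef1. They were -4.59 for Gzmb, -3.73 for Ccr2, -3.42 for Kif18b, -2.77 for Apol7b and -1.71 for Mcm3. Traj8, a joining segment of the T cell receptor alpha locus, stood at 8.02 to 9.33 CPM in resting minusFoxp3 and at 2.85 to 4.56 CPM in resting plusFoxp3 libraries, and at 4.01 to 8.39 CPM in active cells.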

How the results depend on the processing

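The late effect called 1473 genes. It called 1503 with RLE factors, 1495 without a filter, 1464 with filterByExpr, 1265 with the legacy quasi-likelihood method, 1388 without a day term, 1023 in 1 fit of 22 active libraries and 1508 after thinning. DESeq2 called 2655 (1100 higher, 1555 lower). With fewer samples the counts were 244 for day 14 alone, 233 for day 28 alone and 664 without both Siglech-high minusFoxp3 libraries, an alternative chosen after seeing the data. Minus the day 0 difference, also chosen afterwards, 190 genes were called, 179 of them among the 1473, 51 of 84 called named genes lost the call, and Il1r2 (0.151) and Rrm2 (0.0945) changed sign. Leaving out 1 library gave 768 to 1314. The day 28 against day 14 difference gave 2 genes without a filter, 30 with DESeq2 and 0 to 1 without 1 library. The late against early difference (32) gave 136 without a filter, 341 with DESeq2, 67 without the Siglech-high libraries and 4 to 1929 without 1 library. The active against resting difference (87) gave 145, 801, 3 and 1 to 304. The day 0 difference (2) gave 4 without a filter, 37 with DESeq2 and 0 to 3 without 1 library. The share of higher calls was 6.25% in edgeR and 21.1% in DESeq2 for late against early, and 42.5% and 28.8% for active against resting. What causes them was not tested. Over all alternatives, log2 fold changes of named genes kept direction and side of the threshold 1628 times, kept direction but lost the call 314 times and gained it 13 times. Of 84 called named genes, 58 kept the call without each library in turn.

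With the replicate number as a block, the late effect called 2369 genes, the late against early difference 49, the active against resting difference 374 and the day 0 difference 3, and the day 28 against day 14 difference none. Blocking within each day gave 2123. Over 6 pairs of groups, the deviations of libraries with the same number had correlations of 0.0374 to 0.171, 3 of them over 0.1. The second principal component (16.2%) was above 0 for replicate 1 and below 0 for replicate 2 in all 4 groups, a hint from the data and not from the design. The labels name no shared batch and not every correlation was over 0.1, so the numbers were not taken to pair the libraries.

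Each arm had 2 libraries per day. Genes with few read pairs, such as Gzma, have levels that a few reads decide.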
